A study of Drosophila melanogaster with 24 samples.

Results

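Thoraces whose muscle carried RNA interference against Prosbeta5 were set directly against thoraces whose muscle carried it against Prosbeta1. Both genes encode catalytic subunits of the proteasome core. The members were chosen by genotype label, which gave 3 libraries labelled Mhc>ProsB5RNAi and 3 labelled Mhc>ProsB1RNAi, 6 of the 24 libraries of the series. All came from Drosophila melanogaster males aged 10 days, and each genotype carried 1 RNAi transgene driven in skeletal muscle by the promoter of Mhc, the muscle myosin heavy chain gene. The groups are called ProsB5 RNAi and ProsB1 RNAi below. Thoraces with transgenes against GFP or white, 3 libraries each under the same driver and at the same age, serve as a scale for levels. They are part of the fit and help to estimate the spread behind the p-values, but enter no contrast. Another 3 libraries of the same driver and age, with a transgene against TER94 (Ter94 in the labels), help to estimate the spread too. Their levels are given for a few genes. The labels name 1 transgene per target, so a property of a transgene or of its strain cannot be told apart from the loss of its target. They call the libraries biological replicates without saying how many animals each holds, and p-values measure the spread between these libraries.

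The proteasome breaks down proteins tagged with ubiquitin. Its 20S core is a barrel in which alpha rings gate the entry and beta rings hold the proteolytic sites, and the 19S regulatory particle docks on it, with a base that holds the ATPases that unfold substrates and a lid that removes ubiquitin. Prosbeta1 carries the caspase-like site and Prosbeta5 the chymotrypsin-like site. In flies and mammals a shortage of proteasome activity is known to raise the transcription of proteasome genes through a cap'n'collar factor, cnc in flies. Each core needs every beta subunit, and the contrast shows where thorax RNA differs between the RNAi transgenes. Subunit protein and proteasome activity were not measured.

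Depth was alike, with 32.1 to 36.1 M counted reads per ProsB1 RNAi library, 34.4 to 35.7 M per ProsB5 RNAi library and 12404 to 13424 genes detected per library. Levels are in CPM, the counts of a gene relative to the scaled total of its library, and differences are log2 values of ProsB5 RNAi minus ProsB1 RNAi with their SE, n = 3 per group. The tissue label held in its markers, since the 32 sarcomere genes summed to 40539 to 44458 CPM in ProsB1 RNAi and 35773 to 43282 CPM in ProsB5 RNAi. ProsB5 RNAi replicate 1 stood apart in male accessory gland transcripts. Its 17 marker genes in the files summed to 371 CPM there and to 0.343 to 1.29 CPM in the other 5 libraries, and the control libraries ranged from 1.09 to 255 CPM. None of the 16 tested accessory gland genes was called by edgeR's quasi-likelihood test, 14 had an unadjusted p under 0.05 and DESeq2 called 9. In whole thoraces more cells of a type and more RNA per cell cannot be told apart.

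Of 11262 genes tested 672 (5.97%) were called in that test at a Benjamini-Hochberg adjusted p under 0.05, and the differences were mostly modest, with a median absolute log2 of 0.38. Higher in ProsB5 RNAi were 384 genes (3.41%) and lower were 288 (2.56%). A log2 difference of 1 or more in size was seen in 62 of them, 35 higher and 27 lower. The shares of 3.41% and 2.56% are the background for the counts of called genes in each list below. For counts by sign, 5967 of all genes tested had a positive difference and 5294 a negative one. Called genes came almost wholly from the 23.5% of genes whose 3 and 3 libraries did not overlap, 668 of 672. The plot of level against difference shows these calls over the whole range of levels.

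**Figure D1:**
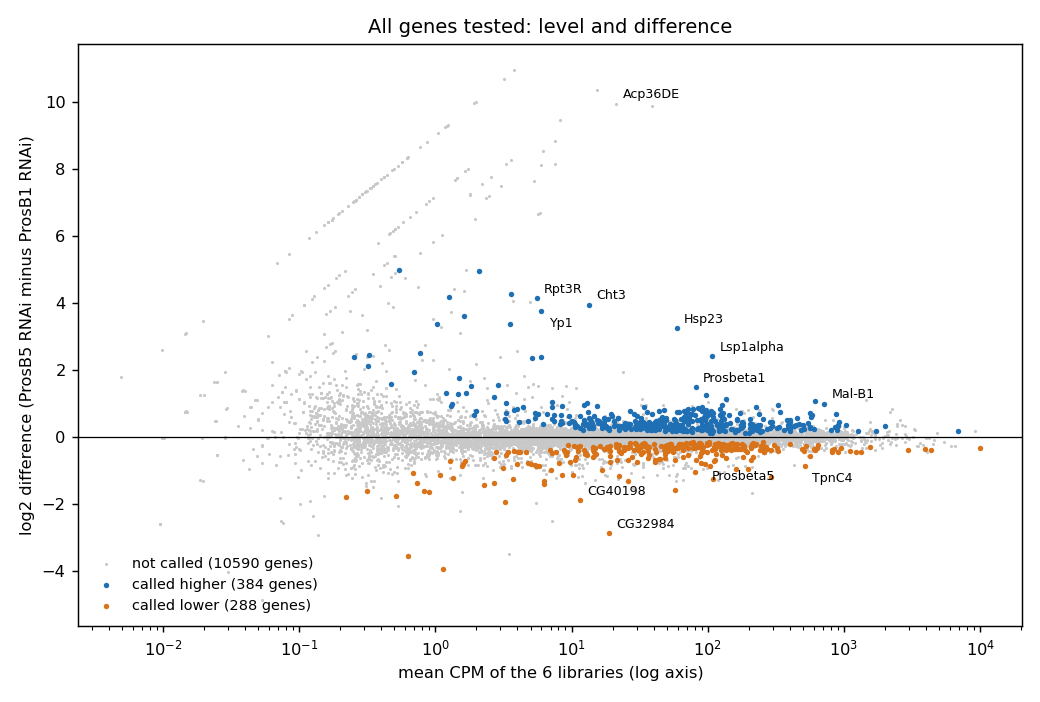
Log2 difference between ProsB5 RNAi and ProsB1 RNAi (vertical) against the mean CPM of the 6 libraries on a log axis (horizontal), 1 point per gene tested. Blue points are the 384 genes called higher, orange points the 288 called lower and grey points genes not called, which include accessory gland genes such as Acp36DE at a log2 difference of 9.95.

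The number of calls depended on single libraries. It was 374, 385 and 371 without ProsB1 RNAi replicate 1, 2 or 3, and 417 without ProsB5 RNAi replicate 2. Without ProsB5 RNAi replicate 1 it was 479 and without replicate 3 it was 613. The main fit has no term for replicate number. In an alternative replicate numbers were taken as a pairing, and with replicate number as a term in the 6 libraries alone 102 genes were called, 58 higher and 44 lower. That fit keeps few residual degrees of freedom. The same term in the fit with the control and Ter94 RNAi libraries gave 724 calls.

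Beside the control levels, the genes higher in ProsB5 RNAi were mainly those in which ProsB5 RNAi lay above the controls. In 219 of the 384 all 3 ProsB5 RNAi libraries exceeded all 6 controls (57.0%, against 13.5% of all genes tested), while all 3 ProsB1 RNAi libraries lay below the controls in 103 (26.8%, against 9.12%). Of the 288 genes lower in ProsB5 RNAi, 156 lay below all controls in ProsB5 RNAi (54.2%, against 11.2% of all genes tested) and 91 above them in ProsB1 RNAi (31.6%, against 10.7%). These counts are a description, since the contrast itself selected the genes.

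Each targeted gene was lower in its own knockdown. Prosbeta1 stood at 45.7, 40.0 and 42.3 CPM in the ProsB1 RNAi libraries and at 106, 145 and 109 CPM in the ProsB5 RNAi libraries, with controls at 73.6 to 87.9 CPM (log2 1.49 ± 0.13, adjusted p = 6.24e-05). Prosbeta5 stood at 114, 123 and 125 CPM in ProsB1 RNAi and at 65.7, 72.6 and 69.7 CPM in ProsB5 RNAi, with controls at 134 to 156 CPM (log2 -0.80 ± 0.07, adjusted p = 6.24e-05). The groups did not overlap for either gene. Levels of the subunit that was not targeted differed in position, because Prosbeta1 lay above every control in ProsB5 RNAi, whereas Prosbeta5 lay below every control in ProsB1 RNAi too. Both genes stayed called with the replicate block in the 6 libraries (adjusted p = 0.0342 and 0.0223) and in all 6 fits that left out 1 library.

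The rest of the 20S core was higher in ProsB5 RNAi without exception. All 12 core genes other than the targets passed the test, at a median log2 difference of 0.83 (range 0.68 to 0.97), where all genes tested had a median of 0.01. In 11 of the 12 every ProsB5 RNAi library exceeded all controls, and in 11 every ProsB1 RNAi library lay below all controls, so the controls stood between the groups. Prosalpha7 was the member in which ProsB5 RNAi reached into the control range, and Prosalpha1 the one in which ProsB1 RNAi did.

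Among the alpha ring genes, which form the gated outer rings, Pros35 (Prosalpha6) had the smallest adjusted p. It stood at 56.0, 55.0 and 57.0 CPM in ProsB1 RNAi, at 97.7, 116 and 89.1 CPM in ProsB5 RNAi and at 64.9 to 85.5 CPM in the controls (log2 0.85 ± 0.11, adjusted p = 0.000902). Pros28.1 (Prosalpha4) went from 57.6, 60.0 and 60.8 CPM to 98.3, 129 and 99.4 CPM (log2 0.87 ± 0.12, adjusted p = 0.0013). Prosalpha5 went from 68.7, 70.6 and 71.4 CPM to 115, 142 and 113 CPM (log2 0.81 ± 0.11, adjusted p = 0.00155). In these 3 genes the ProsB1 RNAi libraries lay within a few CPM of each other, and ProsB5 RNAi replicate 2 exceeded the other ProsB5 RNAi libraries. The smallest alpha ring difference was that of Pros25 (Prosalpha2), at 0.71 ± 0.13.

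In the beta ring, which holds the catalytic sites, Prosbeta7, a subunit with no catalytic site, differed most after Prosbeta1. It stood at 86.0, 86.8 and 86.0 CPM in ProsB1 RNAi and at 142, 212 and 153 CPM in ProsB5 RNAi, against 107 to 128 CPM in the controls (log2 0.97 ± 0.14, adjusted p = 0.00183). Prosbeta2, the third catalytic subunit, with the trypsin-like site, had the smallest difference of the core, from 79.6, 78.2 and 80.9 CPM to 113, 153 and 117 CPM (log2 0.68 ± 0.11, adjusted p = 0.00389). Pros26 (Prosbeta6), Prosbeta3 and CG17331 (Prosbeta4) lay between, at log2 0.89, 0.86 and 0.85. With 1 library left out 11 or 12 of the 12 core genes were called, and 5 with the replicate block in the 6 libraries alone, Pros35, Pros28.1, Prosalpha5 and Prosbeta7 among them.

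**Figure D2:**
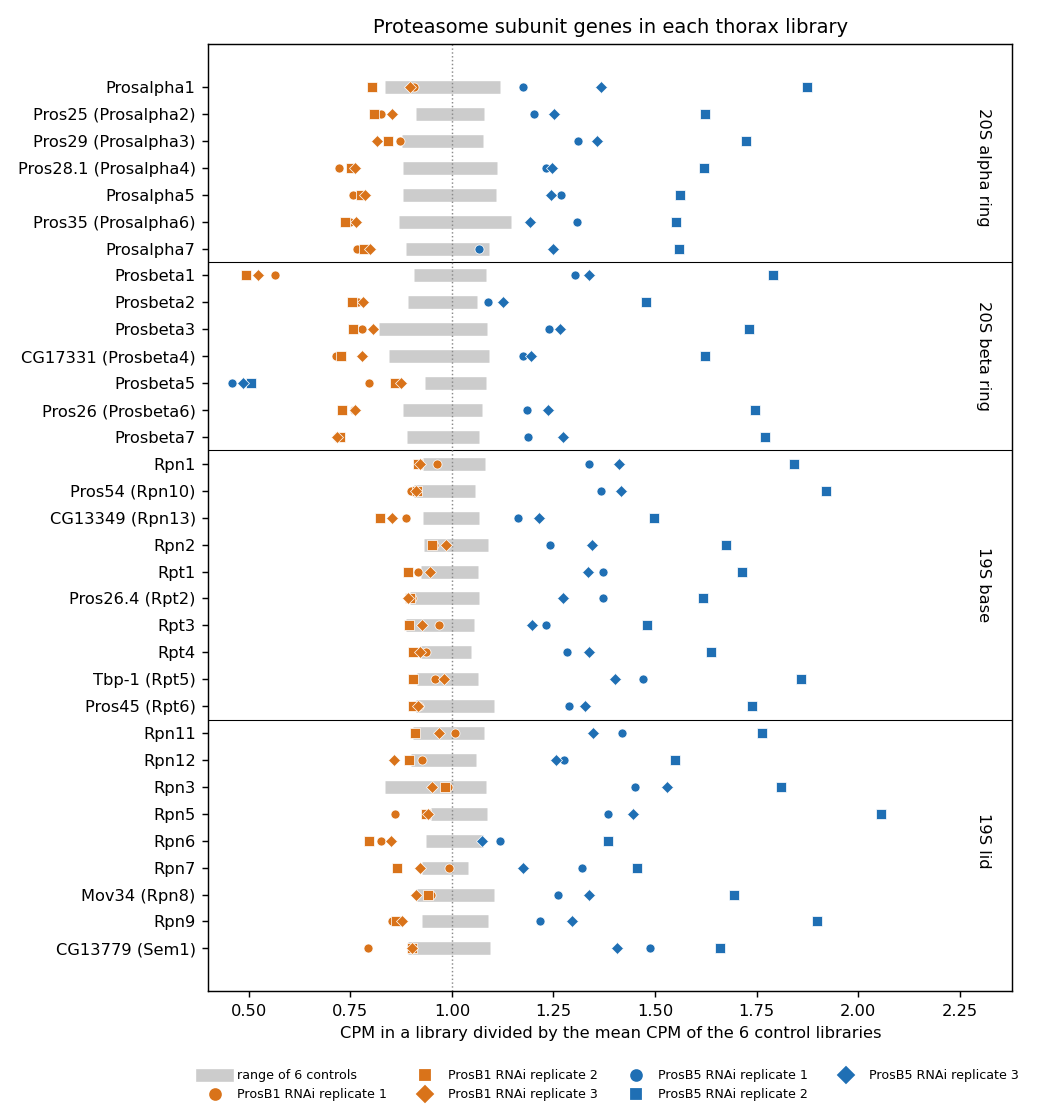
Level of each 20S and 19S gene in each ProsB1 RNAi (orange) and ProsB5 RNAi (blue) library, as its CPM divided by the mean of the 6 control libraries (horizontal), with replicates as circles, squares and diamonds and the control range as a grey bar. Apart from Prosbeta5, all ProsB5 RNAi libraries lie right of all ProsB1 RNAi libraries, and replicate 2 is the farthest right of the ProsB5 RNAi libraries in every row.

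The 19S particle, which neither transgene targets, followed the same order. All 19 genes passed the test as higher in ProsB5 RNAi, at a median log2 difference of 0.66 (range 0.49 to 0.84). Here ProsB5 RNAi exceeded all controls in 18 genes, and ProsB1 RNAi lay below all controls in 4. Rpn6 was the member in which ProsB5 RNAi reached the control range.

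Of the base, Pros54 (Rpn10), a ubiquitin receptor, stood at 76.0, 77.4 and 77.1 CPM in ProsB1 RNAi and at 116, 163 and 119.9 CPM in ProsB5 RNAi (log2 0.79 ± 0.11, adjusted p = 0.00139). The ATPase gene Pros26.4 (Rpt2) went from 95.9, 95.2 and 94.7 CPM to 146, 172 and 135 CPM (log2 0.66 ± 0.09, adjusted p = 0.00139). Rpt4, another of the ATPases, went from 79.5, 76.8 and 78.2 CPM to 109, 139 and 114 CPM (log2 0.62 ± 0.09, adjusted p = 0.00139). In all 3 genes ProsB1 RNAi overlapped the control range and ProsB5 RNAi lay above it. The smallest difference of the base was that of the ATPase gene Rpt3, at 0.49 ± 0.09.

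Of the lid, CG13779 (Sem1), its smallest subunit, stood at 31.5, 35.9 and 35.8 CPM in ProsB1 RNAi and at 59.1, 66.0 and 55.9 CPM in ProsB5 RNAi (log2 0.81 ± 0.10, adjusted p = 0.000622). Rpn5 had the largest difference, from 83.2, 90.5 and 91.1 CPM to 134, 199 and 139.9 CPM (log2 0.84 ± 0.13, adjusted p = 0.00243). Rpn3 went from 84.0, 83.5 and 80.7 CPM to 123, 154 and 129.9 CPM (log2 0.71 ± 0.10, adjusted p = 0.00187). Rpn11, the deubiquitinase of the lid, differed by 0.65 ± 0.10. With 1 library left out 18 or 19 of the 19 particle genes were called, and 3 of 19 with the replicate block in the 6 libraries alone. Pros26.4, Rpn3 and CG13779 were those 3, and Pros54, Rpt4 and Rpn5 had adjusted p = 0.0552, 0.0612 and 0.0565 there.

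Over the 31 core and regulatory genes outside the targets, ProsB5 RNAi replicate 2 was the highest library in every gene. Over all genes tested it was the highest of the 3 ProsB5 RNAi libraries in 3297 of 11262. Without it the log2 differences shrank, for Pros35 from 0.85 to 0.73, for Rpn5 from 0.84 to 0.63 and for Prosbeta7 from 0.97 to 0.76, and all 12 core genes and 18 of the 19 particle genes stayed called. Each ProsB5 RNAi library lay above each ProsB1 RNAi library in all 31 genes.

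Genes that build or regulate the proteasome were mostly higher too, 5 of 6 called. CG5384 (Usp14), a deubiquitinase bound to the particle, stood at 58.4, 54.4 and 59.4 CPM in ProsB1 RNAi and at 91.4, 105 and 85.0 CPM in ProsB5 RNAi (log2 0.71 ± 0.08, adjusted p = 0.000368). Uch-L3 (Uch-L5), another deubiquitinase of the particle, went from 15.2, 14.4 and 15.6 CPM to 21.3, 22.8 and 21.4 CPM (log2 0.53 ± 0.08, adjusted p = 0.00162). Pomp, the maturation chaperone of the core, went from 64.5, 67.9 and 72.5 CPM to 92.5, 106 and 92.1 CPM (log2 0.51 ± 0.09, adjusted p = 0.0063). Of the others PI31, a core-binding regulator, and CG8858 (Ecm29), a proteasome adaptor, were called at 0.71 ± 0.16 and 0.36 ± 0.07. REG, the gene of an alternative cap of the core in the nucleus, stood at 81.6, 86.5 and 90.1 CPM and 83.5, 89.6 and 90.2 CPM (log2 0.03 ± 0.09, adjusted p = 0.928). None of the 6 was called with the replicate block in the 6 libraries alone, where CG5384, Uch-L3 and Pomp had adjusted p = 0.0519, 0.0501 and 0.0596. The count was 3 without ProsB1 RNAi replicate 2.

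Among the paralogues that the fly uses in the male germline, Rpt6R and Rpt3R, relatives of base ATPases, were called higher in ProsB5 RNAi. Rpt6R stood at 0.592, 0.228 and 0.253 CPM in ProsB1 RNAi and at 4.79, 11.1 and 4.70 CPM in ProsB5 RNAi, with controls at 0.172 to 1.06 CPM (log2 4.26 ± 0.55, adjusted p = 0.000902). Rpt3R stood at 0.561, 0.485 and 0.731 CPM and 3.99, 21.4 and 6.21 CPM, with controls at 0.399 to 1.11 CPM (log2 4.15 ± 0.60, adjusted p = 0.00187). ProsB1 RNAi lay within the control range for both, and ProsB5 RNAi replicate 2 was the highest for both. Without it the log2 difference of Rpt3R was 3.09 and that of Rpt6R 3.72, and both stayed called. In Ter94 RNAi, Rpt6R stood at 9.02 to 10.7 CPM and Rpt3R at 43.9 to 52.0 CPM, above the controls too. Of the 14 paralogues 6 passed the filter on low counts, and the other 4 tested were not called. The 8 untested ones reached at most 0.296 CPM in these libraries. The 21 testis markers summed to 4.27 CPM in ProsB5 RNAi replicate 2, the library of that group in which both paralogues were highest. They summed to 23.6 and 4.93 CPM in replicates 1 and 3 of that group, to 4.54 to 16.8 CPM in ProsB1 RNAi and to 5.95 to 26.1 CPM in the controls. Rpt6R stayed called with the replicate block in the 6 libraries, and Rpt3R had adjusted p = 0.0514.

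The known regulators of proteasome genes showed differences of at most 0.19 in size. Of cnc and 4 genes that act on it or with it none was called by edgeR or DESeq2, 3 had an unadjusted p under 0.05, and the median log2 was 0.15. Libraries of the groups did not overlap in any of the 5, with ProsB5 RNAi above in 4 and below in 1. Of all genes tested 23.5% had libraries apart. cnc itself, which encodes the transcription factor, stood at 394, 386 and 396 CPM in ProsB1 RNAi and at 411, 416 and 398 CPM in ProsB5 RNAi (log2 0.06 ± 0.04, adjusted p = 0.521). The smallest adjusted p of the list was that of Pngl, a deglycosylase, at 0.18 ± 0.06 (adjusted p = 0.133). Activity of such a factor can change without a change in its messenger RNA, and only the RNA was measured.

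**Figure D3:**
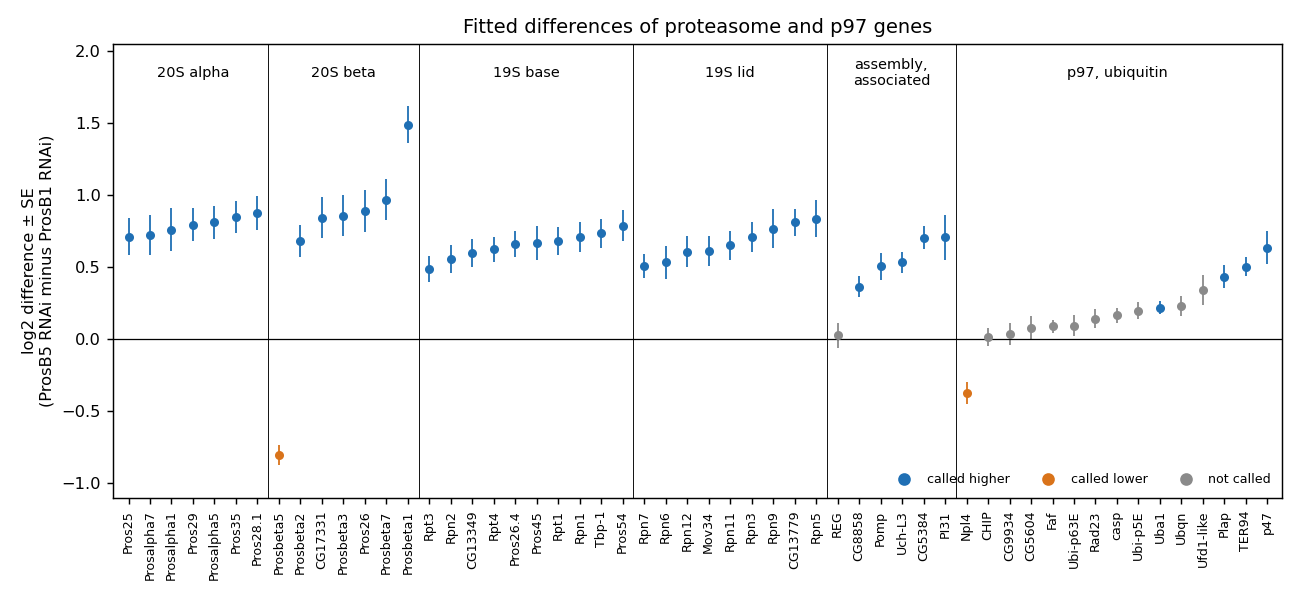
Log2 difference ± SE of ProsB5 RNAi minus ProsB1 RNAi (vertical) for each 20S, 19S, assembly and p97 or ubiquitin gene (horizontal, ordered by difference within a group). The 20S and 19S genes other than the targets lie between 0.49 and 0.97, Prosbeta1 lies at 1.49 and Prosbeta5 at -0.80, and most p97 and ubiquitin factors lie lower.

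In the p97 and ubiquitin machinery, which extracts and delivers tagged proteins, 4 of 15 genes were called higher and 1 lower. Of all genes tested 3.41% and 2.56% were, and the list median log2 was 0.17. TER94, the p97 ATPase, stood at 337, 326 and 340.0 CPM in ProsB1 RNAi and at 467, 516 and 439 CPM in ProsB5 RNAi (log2 0.50 ± 0.07, adjusted p = 0.00101). Its cofactor p47 went from 56.2, 53.0 and 51.4 CPM to 73.5, 99.3 and 77.1 CPM (log2 0.64 ± 0.12, adjusted p = 0.00625). Plap (Plaa), a ubiquitin-binding partner, went from 35.7, 34.0 and 34.3 CPM to 46.8, 49.4 and 44.1 CPM (log2 0.43 ± 0.08, adjusted p = 0.00699). All 3 lay above the controls in every ProsB5 RNAi library. Uba1, the ubiquitin-activating enzyme, was the other gene called higher, at 0.22 ± 0.04. Npl4, a p97 adaptor, was lower in ProsB5 RNAi, from 3353, 3289 and 3418 CPM to 2209, 2736 and 2825 CPM, and the controls at 3791 to 4456 CPM exceeded both groups (log2 -0.37 ± 0.08, adjusted p = 0.0122). The other adaptor gene, Ufd1-like, was not called (log2 0.34 ± 0.11, adjusted p = 0.0832). DESeq2 called 8 of the list higher. With the replicate block in the 6 libraries none of the list was called, and TER94, p47 and Plap had adjusted p = 0.0571, 0.0706 and 0.0566.

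Among the small heat shock proteins, which hold unfolded proteins, Hsp23 had the largest log2 difference. It stood at 8.50, 12.6 and 12.7 CPM in ProsB1 RNAi and at 62.8, 199.9 and 59.2 CPM in ProsB5 RNAi, with controls at 4.45 to 16.6 CPM (log2 3.25 ± 0.55, adjusted p = 0.00429). ProsB1 RNAi lay within the control range, each ProsB5 RNAi library lay above it, and replicate 2 was the highest. Without replicate 2 the log2 difference was 2.43 (adjusted p = 0.00904). Hsp23 stood higher still in Ter94 RNAi, at 290 to 540 CPM. Of 10 small heat shock genes tested l(2)efl was also called higher (log2 0.38 ± 0.10, adjusted p = 0.0496) and CG4461 lower (log2 -0.37 ± 0.09, adjusted p = 0.0279). The call of l(2)efl was lost in each fit that left out 1 library (adjusted p = 0.0856 to 0.185) and with the replicate block in both fits, and 3 genes of the list were called higher without ProsB5 RNAi replicate 1. The call of CG4461 was lost without ProsB1 RNAi replicate 2 or 3 or ProsB5 RNAi replicate 1 or 2 (adjusted p = 0.0594 to 0.0974) and with the block in the 6 libraries.

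Calls among other chaperones were about as rare as among all genes tested, of which 3.41% were called higher and 2.56% lower. Of 21 Hsp70, Hsp90 and co-chaperone genes 1 was called, Hsc70-4, the constitutive cytosolic Hsp70, from 1883, 1745 and 1701 CPM to 2199.9, 2412 and 2069 CPM (log2 0.33 ± 0.09, adjusted p = 0.0474). It stayed called only when ProsB5 RNAi replicate 3 was the library left out, and the other 5 such fits gave adjusted p = 0.0679 to 0.181, as the replicate block in the 6 libraries gave 0.0988. The inducible Hsp70 copies varied widely within groups. Hsp70Bb stood at 28.6, 123 and 44.6 CPM in ProsB1 RNAi and at 39.8, 206 and 158 CPM in ProsB5 RNAi (log2 1.04 ± 0.69, adjusted p = 0.468), and the copies share near-identical sequence. Of 20 endoplasmic reticulum chaperones and sensors none was called by edgeR or DESeq2, 2 had an unadjusted p under 0.05, and the median log2 was 0.06. Hsc70-3, the fly BiP, differed by 0.21 ± 0.12 (adjusted p = 0.376).

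Glutathione transferases, which conjugate glutathione to reactive compounds, were higher in ProsB5 RNAi in part. Of 38 genes of glutathione and redox metabolism tested 6 were called, all higher, at a list median of 0.14, against 3.41% of all genes tested. GstE1 stood at 55.5, 60.8 and 53.2 CPM in ProsB1 RNAi and at 148, 129 and 133 CPM in ProsB5 RNAi, with the controls between at 81.1 to 98.8 CPM (log2 1.27 ± 0.16, adjusted p = 0.000911). GstD2 went from 1.53, 2.40 and 1.74 CPM to 8.70, 15.4 and 6.07 CPM (log2 2.41 ± 0.33, adjusted p = 0.00139). CG16936 (GstE12) went from 418, 397 and 391 CPM to 542, 522 and 522 CPM, with controls at 429 to 524 CPM, above ProsB1 RNAi and overlapping ProsB5 RNAi (log2 0.39 ± 0.06, adjusted p = 0.00296). These 3 stayed called with the replicate block in the 6 libraries and in every fit without 1 library. GstD1, GstD5 and GstD3 were the others, at 0.69 ± 0.13, 1.01 ± 0.25 and 0.94 ± 0.25. GstD genes are close relatives in 1 cluster, so reads could be split between them. The list count was 4 without ProsB1 RNAi replicate 1 or 3 and 3 with the replicate block in the 6 libraries.

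Cytochrome P450 genes, which oxidise hormones and foreign compounds, were called in both directions, 6 higher and 5 lower of 55, with a list median of 0.04. Of all genes tested 3.41% were called higher and 2.56% lower. Cyp9c1 was higher, from 35.8, 35.7 and 36.7 CPM to 56.7, 53.3 and 56.2 CPM (log2 0.62 ± 0.06, adjusted p = 8.47e-05). Cyp309a2 was also higher, from 24.9, 25.9 and 22.0 CPM to 36.9, 32.1 and 33.3 CPM (log2 0.49 ± 0.08, adjusted p = 0.00297). Cyp6a14 was lower, from 23.0, 19.6 and 24.3 CPM to 12.2, 11.9 and 9.94 CPM (log2 -0.97 ± 0.11, adjusted p = 0.000368). Libraries of the groups did not overlap for any of the 3, and with the replicate block in the 6 libraries Cyp9c1 and Cyp6a14 stayed called and Cyp309a2 had adjusted p = 0.0612. Over leave-one-out fits 3 to 5 of the list were called in each direction. The higher count was 3 without ProsB1 RNAi replicate 2 and 3 without ProsB5 RNAi replicate 2, and the lower count was 3 without the same libraries.

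Of 22 autophagy and lysosome genes tested 5 were called higher and none lower, against 3.41% and 2.56% of all genes tested. The list median was 0.05. ref(2)P, the fly p62, a receptor that carries ubiquitylated cargo to autophagosomes, stood at 405, 415 and 461 CPM in ProsB1 RNAi and at 587, 915 and 596 CPM in ProsB5 RNAi (log2 0.71 ± 0.14, adjusted p = 0.00938). The lysosomal protease gene cathD went from 322, 362 and 348 CPM to 397, 501 and 444 CPM (log2 0.38 ± 0.09, adjusted p = 0.023). Controls stood at 469 to 612 CPM for ref(2)P and at 381 to 447 CPM for cathD. In both genes ProsB1 RNAi lay below all controls and ProsB5 RNAi overlapped them. Cp1 (CtsL1), a cathepsin L, went from 529.8, 549 and 569.8 CPM to 617, 655 and 669 CPM (log2 0.23 ± 0.05, adjusted p = 0.0123), and both groups lay below the controls at 693 to 786 CPM. The other calls were Atg4, an autophagy protease, and the cathepsin B gene CtsB1 (CtsB), at 0.18 ± 0.05 and 0.28 ± 0.07. The list count was 2 without any 1 of the ProsB1 RNAi libraries, 3 without ProsB5 RNAi replicate 1 and 1 without its replicate 2. It was 0 with the replicate block in the 6 libraries. ref(2)P stayed called in every leave-one-out fit. cathD lost its call without ProsB1 RNAi replicate 1 or 3 or ProsB5 RNAi replicate 2 (adjusted p = 0.0653 to 0.0833), and Cp1 without ProsB1 RNAi replicate 1 or 2 or ProsB5 RNAi replicate 2 (adjusted p = 0.0507 to 0.0626).

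Of 16 genes tied to the stress factors ATF4 and C/EBP, 2 of serine synthesis were called higher. CG11899 (Psat), a phosphoserine aminotransferase, went from 106, 102 and 101 CPM to 188, 131 and 142 CPM (log2 0.58 ± 0.14, adjusted p = 0.0273). CG6287 (Phgdh), the first enzyme of that pathway, went from 255, 245 and 224 CPM to 405, 285 and 299 CPM (log2 0.45 ± 0.11, adjusted p = 0.0335). ProsB5 RNAi replicate 1 was the highest library in both. Without it neither was called, and the same held without any 1 of the ProsB1 RNAi libraries (adjusted p = 0.0708 to 0.101 for CG11899 and 0.0632 to 0.142 for CG6287). slbo, a C/EBP gene, was called lower (log2 -0.38 ± 0.10, adjusted p = 0.0487), a call that stayed only when ProsB5 RNAi replicate 3 was left out, among such fits (otherwise adjusted p = 0.0577 to 0.164). crc, the gene of ATF4, stood at 1097, 1143 and 1111 CPM and 1113, 1135 and 1106 CPM (log2 0.00 ± 0.04, adjusted p = 0.996). CG6272, a C/EBP-family gene, stood at 25.3, 31.6 and 30.4 CPM and 28.2, 30.3 and 29.2 CPM (log2 0.01 ± 0.09, adjusted p = 0.987). The count of higher genes was 4 without ProsB5 RNAi replicate 2 or 3 and 6 with DESeq2, and 0 of the list were called with the replicate block in the 6 libraries.

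Genes of starch, maltose and trehalose metabolism differed in a few members. Mal-B1, a maltase gene, stood at 427, 511 and 489 CPM in ProsB1 RNAi and at 997, 876 and 985 CPM in ProsB5 RNAi, with controls at 103 to 278 CPM, below both groups (log2 1.00 ± 0.12, adjusted p = 0.000694). Its neighbour Mal-B2 went from 228, 217 and 222 CPM to 543, 381 and 368 CPM, with controls at 151 to 237 CPM (log2 0.95 ± 0.12, adjusted p = 0.000902). Both stayed called in every leave-one-out fit and with the replicate block in the 6 libraries, and both overlap the gene Pde1c. Tps1, the trehalose synthase gene, went from 816, 819 and 774 CPM to 1006, 1088 and 957 CPM (log2 0.34 ± 0.09, adjusted p = 0.043), but no fit without 1 library called it (adjusted p = 0.054 to 0.165), nor did the replicate block in the 6 libraries (adjusted p = 0.0617). With these 3 of 17 genes the list had a median of 0.32. Amyrel, an amylase relative that stood at 0 to 0.190 CPM in the controls, did not separate the groups, at 24.0, 6.37 and 20.4 CPM in ProsB1 RNAi and 37.0, 15.8 and 15.4 CPM in ProsB5 RNAi (log2 0.43 ± 0.44, adjusted p = 0.692). Its libraries overlapped, with replicate 1 the highest and replicate 2 low in ProsB1 RNAi. Of the list 14 of 17 genes were highest in ProsB5 RNAi replicate 1, against 4350 of 11262 genes tested. That library is the one with accessory gland transcripts. It also had the most gut marker RNA of its group, 12389 CPM against 6660 and 6412 CPM in replicates 2 and 3. The part of either tissue in the result was not tested.

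Respiratory chain genes leaned the other way. Of 38 nuclear genes of oxidative phosphorylation tested 36 had a negative log2 difference and 31 had all ProsB5 RNAi libraries below all ProsB1 RNAi libraries, beside 11.1% of all genes tested, and the list median was -0.23. Called lower were 5. CG8680 (ND-13A), a complex I subunit, went from 184, 193 and 191 CPM to 137, 149 and 157 CPM (log2 -0.36 ± 0.07, adjusted p = 0.0139). SdhB, of complex II, went from 1358, 1255 and 1189 CPM to 838, 964 and 1049.9 CPM (log2 -0.42 ± 0.09, adjusted p = 0.0195). cype, a subunit of cytochrome c oxidase, went from 678, 728 and 703 CPM to 529, 544 and 612 CPM (log2 -0.32 ± 0.08, adjusted p = 0.0262). ND23 and CG15434 (ND-B8), both of complex I, were the other calls, at -0.24 ± 0.06 and -0.47 ± 0.13. In 28 of the 38 genes ProsB5 RNAi lay below all 6 controls, against 11.2% of all genes tested, and in 4 ProsB1 RNAi did, against 9.12%. In 35 of the 38 genes ProsB5 RNAi replicate 3 was the highest of its group, with replicate 1 or 2 lower. The list summed to 25572, 27130.3 and 28899 CPM in ProsB5 RNAi, 32464 to 32842 CPM in ProsB1 RNAi and 31319.6 to 43854 CPM in the controls. ProsB5 RNAi replicate 1, the lowest, was also the lowest of the 6 in summed sarcomere genes and the one with accessory gland transcripts, whose part in the result was not tested. The 9 mitochondrially encoded genes of the list are listed at 0 in every library.

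These calls rested on few libraries. Of the respiratory list 0 genes were called by edgeR without ProsB5 RNAi replicate 1, 2 without ProsB1 RNAi replicate 1, 2 without ProsB1 RNAi replicate 2, 2 without ProsB5 RNAi replicate 2 and 7 without ProsB5 RNAi replicate 3. DESeq2 called 12. CG8680 lost its call without ProsB5 RNAi replicate 1 (adjusted p = 0.0515), and SdhB without that library or ProsB1 RNAi replicate 1 (adjusted p = 0.0635 to 0.0687). cype lost it without ProsB1 RNAi replicate 2 or 3 or ProsB5 RNAi replicate 1 or 2 (adjusted p = 0.0611 to 0.0899). None was called with the replicate block in the 6 libraries.

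Glycolysis had 1 call of 18, fbp, the fructose-bisphosphatase of the reverse pathway, from 123, 112 and 108 CPM to 163, 134 and 137 CPM (log2 0.34 ± 0.08, adjusted p = 0.031), which was lost without ProsB1 RNAi replicate 2 or 3 or ProsB5 RNAi replicate 1 or 3 (adjusted p = 0.054 to 0.162). The list median was 0.02, and of all genes tested 3.41% were called higher. Of 80 cytosolic ribosomal protein genes 78 had a positive difference at a median of 0.11, and 1 was called, RpL3, from 1727, 1570.1 and 1519 CPM to 1899.9, 1770.4 and 1868 CPM (log2 0.20 ± 0.05, adjusted p = 0.0459). That call was lost in 5 of 6 leave-one-out fits, all but the one without ProsB1 RNAi replicate 1 (adjusted p = 0.074 to 0.236). In 73 of the 80 ProsB5 RNAi replicate 1 was the highest library of its group, and DESeq2 called 6 of the list. For fbp and RpL3 the replicate block in the 6 libraries gave adjusted p = 0.0668 and 0.167.

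Of 32 genes of the sarcomere, the contractile unit of muscle, 1 was called higher and 1 lower, with a median of -0.06, and DESeq2 called 2 in each direction. The edgeR counts were near the shares of all genes tested, 3.41% higher and 2.56% lower. Without ProsB5 RNAi replicate 1 the higher count was 2, and without ProsB1 RNAi replicate 2 the lower count was 2. TpnC4, the troponin C of flight muscle, was lower in ProsB5 RNAi, at 582, 681 and 725 CPM in ProsB1 RNAi and 334, 387 and 386 CPM in ProsB5 RNAi (log2 -0.84 ± 0.11, adjusted p = 0.000782). Every ProsB5 RNAi library lay below every control, at 468 to 1100.3 CPM, and the call held in each alternative tried for it. Act57B, an actin gene of muscle, was higher, from 812, 765 and 746 CPM to 894, 1155 and 1161 CPM (log2 0.47 ± 0.09, adjusted p = 0.00721), and had adjusted p = 0.128 with the replicate block in the 6 libraries. Its ProsB1 RNAi libraries lay below all controls, at 874 to 1015 CPM, and ProsB5 RNAi overlapped them. Mhc, whose promoter drives the transgenes, stood at 4149.6, 4329.7 and 4206 CPM and 3701, 4325 and 4425 CPM (log2 -0.03 ± 0.11, adjusted p = 0.945). The flight muscle actin gene Act88F varied within ProsB5 RNAi, at 197, 400.5 and 320.2 CPM, and was not called (adjusted p = 0.127).

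Of 17 antimicrobial peptide genes tested none was called by edgeR, 3 had an unadjusted p under 0.05 and DESeq2 called 1, with a median of 0.43. In 14 of the 17 ProsB5 RNAi replicate 1, the library with accessory gland transcripts, was the highest of its group, against 4350 of 11262 genes tested. Def, a defensin, had the smallest adjusted p, at 4.27, 3.88 and 5.93 CPM in ProsB1 RNAi and 22.1, 8.79 and 9.45 CPM in ProsB5 RNAi (log2 1.52 ± 0.42, adjusted p = 0.054). Without ProsB5 RNAi replicate 1 its log2 difference was 0.96 (adjusted p = 0.214). Of 19 peptidoglycan and glucan recognition genes and their factors 3 were called higher. PGRP-SA, a receptor for bacterial cell wall upstream of Toll, went from 10.9, 10.5 and 10.9 CPM to 16.9, 14.8 and 16.0 CPM (log2 0.56 ± 0.08, adjusted p = 0.00183) and stayed called in every alternative. PGRP-SD went from 19.5, 29.4 and 22.4 CPM to 59.9, 38.5 and 35.1 CPM (log2 0.90 ± 0.23, adjusted p = 0.0378). GNBP3, a receptor for fungal glucan, went from 109.8, 117 and 103 CPM to 134, 123 and 133 CPM (log2 0.24 ± 0.06, adjusted p = 0.0393). PGRP-SD lost its call without ProsB1 RNAi replicate 1 or 3 or ProsB5 RNAi replicate 1 or 2 (adjusted p = 0.0541 to 0.135), and GNBP3 without ProsB1 RNAi replicate 1 or 3 or ProsB5 RNAi replicate 1 or 3 (adjusted p = 0.102 to 0.168). PGRP-SD and GNBP3 had adjusted p = 0.15 and 0.185 with the replicate block in the 6 libraries. The list count was 1 without ProsB1 RNAi replicate 1, without its replicate 3 or without ProsB5 RNAi replicate 1.

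In the JAK-STAT pathway, which carries cytokine signals, 3 of 14 genes tested were higher and 1 lower. upd3, a cytokine, stood at 0.187, 0.228 and 0.281 CPM in ProsB1 RNAi and at 0.651, 0.642 and 0.846 CPM in ProsB5 RNAi, below 1 CPM throughout (log2 1.60 ± 0.31, adjusted p = 0.00912). Stat92E, its transcription factor, went from 459, 441 and 438 CPM to 514, 517 and 541 CPM (log2 0.23 ± 0.05, adjusted p = 0.0269). TotX, a stress-induced humoral factor, was lower, from 114, 101 and 85.7 CPM to 52.2, 76.1 and 60.3 CPM, and the controls at 16.9 to 50.1 CPM lay below both groups (log2 -0.68 ± 0.15, adjusted p = 0.0172). TepII (Tep2), a complement-like protein, was called at 0.33 ± 0.08. upd3 was called in all leave-one-out fits, of which each gave 1 higher gene in the list, apart from 2 without ProsB5 RNAi replicate 1. Stat92E was called in 1 of 6, that without ProsB5 RNAi replicate 1 (otherwise adjusted p = 0.0651 to 0.137), and TotX lost its call without ProsB1 RNAi replicate 1 or ProsB5 RNAi replicate 1 (adjusted p = 0.0594 to 0.0665). None held with the replicate block in the 6 libraries, where upd3 had adjusted p = 0.0622. Of 16 genes of JNK signalling and cell death none was called by edgeR or DESeq2 or had an unadjusted p under 0.05, at a median of 0.00 and with every log2 difference between -0.12 and 0.07.

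Of 28 secreted growth factors and myokines tested 4 were called higher. Idgf5, an imaginal disc growth factor of the chitinase-like family, went from 57.9, 58.7 and 53.3 CPM to 77.6, 72.0 and 67.6 CPM (log2 0.35 ± 0.08, adjusted p = 0.0157). Idgf1 went from 69.1, 78.8 and 79.3 CPM to 94.9, 91.8 and 85.6 CPM (log2 0.26 ± 0.06, adjusted p = 0.0315). Idgf2 went from 252, 268 and 257 CPM to 339, 303 and 293 CPM (log2 0.27 ± 0.07, adjusted p = 0.0353). Pvf2, a ligand related to vascular growth factors, was the fourth, at 0.46 ± 0.12. Both ProsB5 RNAi replicates 1 and 2 mattered to the count, which was 0 without either, and it was 1 without ProsB1 RNAi replicate 1, 2 without its replicate 2 and 1 without its replicate 3. Idgf5, Idgf1 and Idgf2 had adjusted p = 0.0536 to 0.0924, 0.0589 to 0.111 and 0.0591 to 0.12 in the fits that lost them. The replicate block in the 6 libraries left none.

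Some markers of fat body and haemocytes were called higher in ProsB5 RNAi. The 7 fat body markers summed to 11340.3 to 12138 CPM in ProsB1 RNAi, 13976 to 17006 CPM in ProsB5 RNAi and 8586 to 11319.8 CPM in the controls. Lsp1beta, a larval serum storage protein, stood at 402, 418 and 354 CPM in ProsB1 RNAi and at 915, 685 and 878 CPM in ProsB5 RNAi (log2 1.08 ± 0.19, adjusted p = 0.00555). Lsp1alpha, of the same hexamer family, stood at 30.6, 36.7 and 34.2 CPM and 311, 117 and 116 CPM, with ProsB5 RNAi replicate 1 far above the others (log2 2.42 ± 0.45, adjusted p = 0.00699), and without that library its log2 difference was 1.78 (adjusted p = 0.0172). These were the 2 of 6 tested markers that were called, and both stayed called without ProsB5 RNAi replicate 1. With the replicate block in the 6 libraries Lsp1beta stayed called and Lsp1alpha had adjusted p = 0.0634. Lsp2 was not called, at 812, 766 and 681 CPM and 3164, 1073 and 1387 CPM (log2 1.32 ± 0.39, adjusted p = 0.0755). Fbp1, a fat body receptor of larvae, was at or near 0 in all 6 libraries.

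The 10 haemocyte markers summed to 1077 to 1144 CPM in ProsB1 RNAi, 1356 to 1417 CPM in ProsB5 RNAi and 959.9 to 1099.8 CPM in the controls, and 5 were called higher at a list median of 0.35. Hml, hemolectin, went from 229, 268 and 255 CPM to 341, 354 and 338 CPM (log2 0.46 ± 0.09, adjusted p = 0.0103). Ppn, an extracellular matrix protein that haemocytes secrete, went from 334, 349 and 342 CPM to 425, 452 and 437 CPM (log2 0.36 ± 0.07, adjusted p = 0.00817). The groups did not overlap in 8 of the 10 markers, with ProsB5 RNAi above in each, an order seen in 12.4% of all genes tested. Without ProsB1 RNAi replicate 1 none of the 10 was called (adjusted p = 0.0603 for Hml and 0.0512 for Ppn), and 2 or 3 were called in the other leave-one-out fits. Hml was the 1 marker that stayed called with the replicate block in the 6 libraries. The part of fat body and haemocyte RNA in the other differences was not tested.

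The yolk protein genes Yp1, Yp2 and Yp3, which are known for high expression in the female fat body, were among the largest differences at low levels in these males. Yp1 stood at 1.46, 0.856 and 0.141 CPM in ProsB1 RNAi and at 25.1, 3.77 and 4.67 CPM in ProsB5 RNAi (log2 3.78 ± 0.81, adjusted p = 0.0172). Yp2 stood at 0.872, 0.714 and 0.253 CPM and 14.3, 1.98 and 2.92 CPM (log2 3.38 ± 0.69, adjusted p = 0.0125). Yp3 stood at 2.12, 1.57 and 1.29 CPM and 18.5, 3.29 and 3.79 CPM (log2 2.36 ± 0.55, adjusted p = 0.0249). Controls of Yp3 stood at 3.48 to 6.50 CPM, above all ProsB1 RNAi libraries and overlapping ProsB5 RNAi. For Yp1 and Yp2 ProsB5 RNAi lay above all controls. In all 3 ProsB5 RNAi replicate 1, the library with accessory gland transcripts, was several times higher than replicates 2 and 3. Without it the log2 differences were 2.37, 2.00 and 1.09, Yp1 was no longer called (adjusted p = 0.0566) and Yp2 and Yp3 were. Yp1 also lost its call without ProsB1 RNAi replicate 2 or 3, Yp2 without ProsB1 RNAi replicate 3 (adjusted p = 0.0588) and Yp3 without any 1 ProsB1 RNAi library (adjusted p = 0.0595 to 0.106). With the replicate block in the 6 libraries none of the 3 was called (adjusted p = 0.0503, 0.0662 and 0.0955).

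Gut, nerve and eye transcripts gave 2 calls together. LysP, a lysozyme gene, was the 1 gut marker of 25 called, from 170.1, 172 and 202 CPM to 308, 280.1 and 297 CPM (log2 0.70 ± 0.07, adjusted p = 0.0002), and it stayed called in every alternative. The other gut markers, mainly digestive proteases, varied widely within groups, and 2 were called lower without ProsB5 RNAi replicate 1. Unlike LysP, 18 of the 25 had a negative difference, and the list median was -0.13. The 26 summed to 6747 to 10309 CPM in ProsB1 RNAi and 6412 to 12389 CPM in ProsB5 RNAi. None of 11 neuron markers was called by edgeR or DESeq2 or had an unadjusted p under 0.05. Of 20 photoreceptor genes rdgA, a diacylglycerol kinase, was called lower, from 213, 231 and 231 CPM to 176, 191 and 195 CPM (log2 -0.26 ± 0.06, adjusted p = 0.0198). The call was lost without ProsB1 RNAi replicate 2 or 3 or ProsB5 RNAi replicate 1 (adjusted p = 0.0705 to 0.0719) and with the replicate block in the 6 libraries (adjusted p = 0.0754). The eye's main opsin, ninaE, stood at 0.218, 2.88 and 6.19 CPM and 0.325, 4.77 and 4.02 CPM. None of 8 clock genes, 5 metallothionein genes, 12 cuticle genes or 17 testis markers tested was called by edgeR. DESeq2 called 1 clock and 1 cuticle gene, and 1 clock gene and 2 cuticle genes had an unadjusted p under 0.05.

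**Figure D4:**
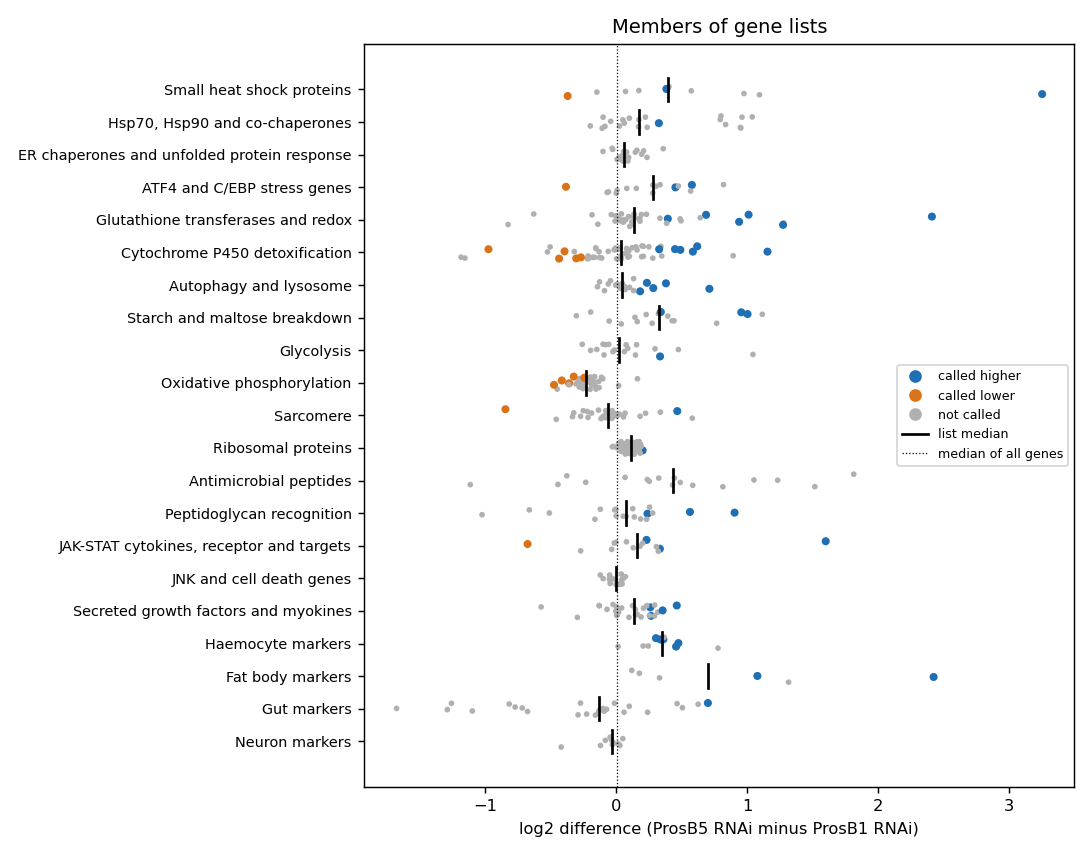
Log2 difference of each tested member (horizontal) for 21 gene lists, with members called higher in blue, called lower in orange and not called in grey, list medians as black bars and the median of all genes as a dotted line. Oxidative phosphorylation lies left of 0 at a median of -0.23, haemocyte and fat body markers lie right of it at 0.35 and 0.70, and JNK and cell death genes sit at 0.00.

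Outside the lists Cht3 (Cht10), a chitinase gene, had the smallest adjusted p of all genes, at 1.56, 1.57 and 1.74 CPM in ProsB1 RNAi and 20.1, 24.4 and 31.6 CPM in ProsB5 RNAi, with controls at 1.89 to 4.81 CPM (log2 3.96 ± 0.18, adjusted p = 3.43e-07). Every ProsB5 RNAi library exceeded every control and every ProsB1 RNAi library lay below them all. Ter94 RNAi lay within the control range, at 2.91 to 3.78 CPM. The call held in each alternative, with adjusted p = 0.00305 under the replicate block in the 6 libraries.

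In the other direction CG32984, a gene without a known role here, led. It stood at 34.3, 30.4 and 34.7 CPM in ProsB1 RNAi and at 4.32, 5.30 and 4.02 CPM in ProsB5 RNAi (log2 -2.86 ± 0.16, adjusted p = 2.02e-06). Its controls, at 8.70 to 22.7 CPM, lay between the groups. CG40198 stood at 20.7, 13.3 and 20.6 CPM and 6.06, 3.99 and 4.87 CPM, both below the controls at 24.0 to 33.9 CPM (log2 -1.87 ± 0.19, adjusted p = 0.0002). CG13618 (Jhbp12), of a juvenile hormone-binding family by its current name, stood at 8.81, 7.74 and 10.7 CPM and 2.96, 3.60 and 3.73 CPM, below the controls at 18.1 to 35.4 CPM (log2 -1.40 ± 0.22, adjusted p = 0.00261). In both the knockdowns lay on the same side of the controls, with ProsB5 RNAi farther away.

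Smvt, a vitamin transporter gene, was in contrast above the controls in ProsB1 RNAi. It stood at 94.1, 72.1 and 90.2 CPM there, at 39.6, 32.2 and 14.7 CPM in ProsB5 RNAi and at 13.3 to 33.4 CPM in the controls (log2 -1.57 ± 0.38, adjusted p = 0.0314). The gustatory receptor gene Gr98a had the same order, at 6.42, 4.57 and 4.30 CPM, 1.57, 1.81 and 0.612 CPM and 0.964 to 1.87 CPM (log2 -1.93 ± 0.42, adjusted p = 0.0174). CG33109 stood at 349, 397 and 469 CPM and 198, 184 and 148 CPM, with controls at 131 to 323 CPM (log2 -1.19 ± 0.11, adjusted p = 0.000104). ProsB1 RNAi exceeded all controls in each of these. The P450 gene Cyp28d2 (-1.32 ± 0.12), CG17777 (-1.26 ± 0.21), CG6733 (-1.32 ± 0.31) and CG10513 (-1.24 ± 0.28) complete the 10 largest lower genes. Smvt was called in 1 of 6 leave-one-out fits, that without ProsB5 RNAi replicate 1 (otherwise adjusted p = 0.0544 to 0.0889). CG6733 lost its call without ProsB1 RNAi replicate 1 or 3 or ProsB5 RNAi replicate 3, CG10513 without ProsB1 RNAi replicate 1 or ProsB5 RNAi replicate 2 or 3, and Gr98a without ProsB1 RNAi replicate 1 (adjusted p = 0.0519 to 0.101, 0.0683 to 0.0889 and 0.0652). With the replicate block in the 6 libraries CG32984, CG40198, CG13618, Cyp28d2 and CG10513 were called and the other 5 were not.

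**Figure D5:**
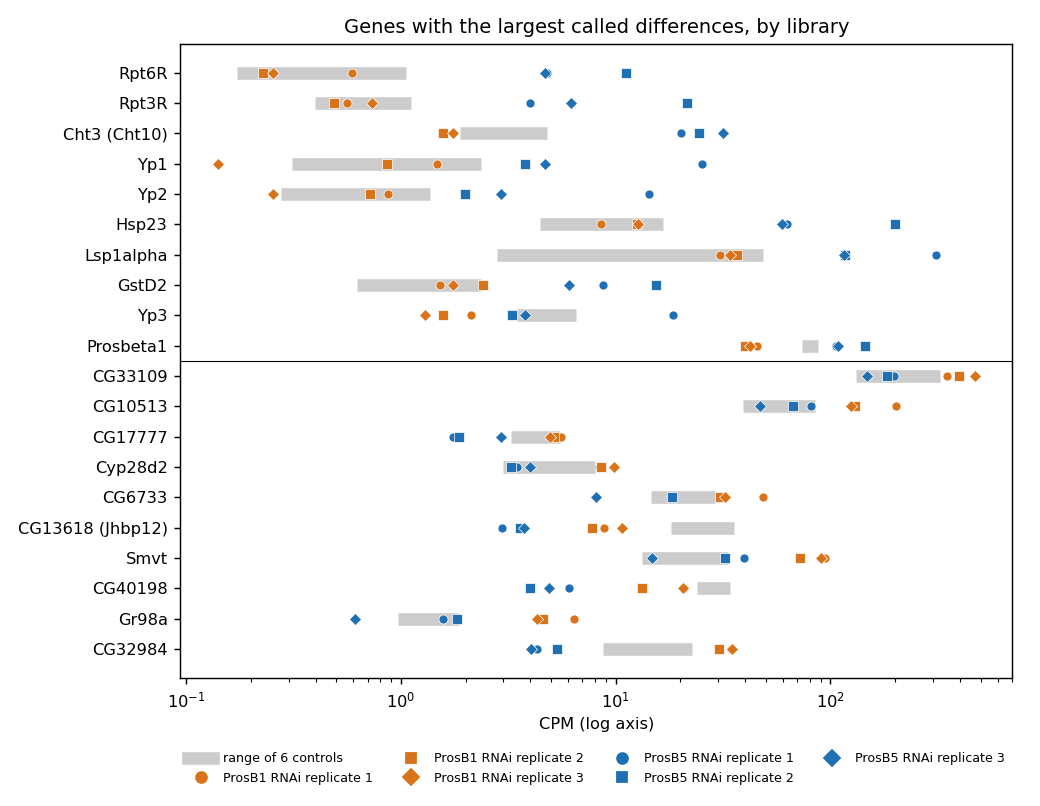
Levels in CPM on a log axis (horizontal) of the 10 genes with the largest called differences in each direction, with ProsB1 RNAi libraries in orange, ProsB5 RNAi libraries in blue, replicates as circles, squares and diamonds and the range of the 6 controls as a grey bar. The groups do not overlap in any row, and the controls lie beside ProsB1 RNAi for Rpt6R and Hsp23 and beside ProsB5 RNAi for Smvt and Gr98a.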

How the data were processed

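The authors deposited raw read counts per gene, 1 file per library, each with 15682 genes, and per the labels' protocols the libraries came from poly(A) RNA with a stranded kit. Per the submitters' processing notes, STAR and the build BDGP5 were used. No source used here gives the version of STAR, the counting tool or its strand setting. Rows that name no gene, 22.5 to 23.8% of the deposited counts, were left out.

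From the counts, edgeR 4.0.16 (R 4.3.3, limma 3.58.1) fitted 15 thorax libraries with TMM scaling after filterByExpr (minimum count 10, minimum total 15), and its quasi-likelihood test, two-sided, took ProsB5 RNAi minus ProsB1 RNAi, adjusted over 11262 genes by Benjamini-Hochberg and called under 0.05. The test was also tried on counts simulated from the spread of these libraries, and no result given here rests on that trial. SEs are the absolute log2 difference divided by the square root of F. Named are the 2 targets, Amyrel and CG6272, the 10 largest called differences each way among genes at 5 CPM or more whose libraries did not overlap, and the 3 (markers: 2) called members of each list with the smallest adjusted p. Further genes named to complete a group were chosen after their values were seen, and the members and lists were chosen with earlier results of these data known.

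Same-numbered libraries of the groups deviated together (correlations 0.463, 0.370 and 0.147, all above 0.1), so replicate numbers, which come from the labels, were taken as a pairing in alternative fits. The main fit has no replicate term, so its SEs and adjusted p-values are unpaired. Of the 6 pairs of unlike number, ProsB1 RNAi replicate 2 with ProsB5 RNAi replicate 3 and ProsB1 RNAi replicate 3 with ProsB5 RNAi replicate 2 also correlated, at 0.360 and 0.255, above the third same-number pair, and the other 4 were negative. Alternatives were the replicate block, the 6 libraries alone, leaving out each library, no filter on low counts, scaling by relative log expression and DESeq2 1.42.0. Replicates differed beyond sampling noise, with a chi-square per degree of freedom of 21.1 to 77.9. Of 77 genes named by the rule, 40 overlap another gene in the annotation, so their reads are uncertain. Of 717 list entries 712 matched a gene in the files.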

Additional observations from a re-analysis of the deposited data

How the results depend on the processing

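None of the called genes named by the rule changed direction under any alternative, and the other called genes were not checked for this. The differences of Amyrel and CG6272, which were not called, ranged from -0.12 to 0.76 and from -0.09 to 0.05. DESeq2 called 1022 genes, 605 higher and 417 lower, of which 665 were among the 672 of edgeR, the 6 libraries alone gave 327 (189 and 138), and the 62 genes with a log2 difference of 1 or more in size split into 35 and 27. With the replicate block in the 6 libraries alone 102 genes were called (58 and 44), among them 5 of the 12 core and 3 of the 19 regulatory particle genes, whereas the same block in 15 libraries gave 724. Leaving out 1 library gave 371 to 613 calls, 189 to 310 higher and 174 to 303 lower, 11 to 12 core genes and 18 to 19 particle genes. Prosbeta1 then ranged from 1.32 to 1.57 on the log2 scale and Prosbeta5 from -0.85 to -0.77, both called throughout. Of the 73 other named genes that were called, 46 lost the call with the block in the 6 libraries, 26 in the 6 libraries alone, 6 without a filter, 2 with the block in 15 libraries, none with DESeq2 or the other scaling and 9 to 22 with 1 library left out. The cause was not tested. With 3 libraries a group, the precision is set by the spread between libraries more than by the 32.1 M or more reads each holds, and genes under the filter were not tested.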

Other observations

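Further gene families, chosen after their values were seen and so given as a description, are set beside all genes tested, of which 3.41% were called higher and 2.56% lower. Of the 11262 genes tested 5967 had a positive and 5294 a negative difference. Basement membrane genes were called higher in ProsB5 RNAi in 6 of 10. The laminin gene LanB1 went from 48.6, 49.5 and 51.7 CPM in ProsB1 RNAi to 65.1, 64.1 and 60.5 CPM in ProsB5 RNAi (log2 0.34 ± 0.07, adjusted p = 0.00983, edgeR), and the laminin gene wb was higher too (log2 0.46 ± 0.10, adjusted p = 0.0156, edgeR). Collagen IV genes Cg25C (Col4a1) and vkg, BM-40-SPARC (SPARC) and Ppn were the others, and 3 of these 6 also stand among the haemocyte markers. All 8 subunit genes of the chaperonin CCT, which folds actin and tubulin, lay higher in every ProsB5 RNAi library than in every ProsB1 RNAi library, an order seen in 12.4% of all genes tested, at a median log2 of 0.26, though 1 was called. Of 12 Bomanins, short secreted immune peptides, 11 had a positive difference and 2 were called higher.

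Neprilysins, membrane metalloproteases, were called in both directions, 7 higher and 2 lower of 24. Nep2 was lower, from 80.1, 81.5 and 75.8 CPM to 49.6, 56.6 and 52.9 CPM (log2 -0.58 ± 0.07, adjusted p = 0.000902, edgeR), and the neprilysin-like gene CG9780 (Nepl11) was higher, from 112, 101 and 101 CPM to 164, 141 and 133 CPM (log2 0.48 ± 0.07, adjusted p = 0.00268, edgeR). Of 15 very long chain fatty acid elongase genes tested 4 were lower. The elongase gene bond went from 73.2, 64.0 and 74.8 CPM to 43.3, 43.3 and 46.0 CPM, with controls at 98.8 to 168 CPM (log2 -0.68 ± 0.09, adjusted p = 0.00139, edgeR). Genes of mitochondrial translation were lower in few cases, 2 of 72 mitochondrial ribosomal protein genes, of which 55 had a negative difference, and 2 of 15 mitochondrial tRNA synthetase genes. Among 18 cytosolic tRNA synthetase genes 17 had a positive difference and 2 were called higher.

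Single genes chosen after their values were seen include genes of dividing cells, higher in ProsB5 RNAi at low levels. The gene borr, a subunit of the chromosomal passenger complex, stood at 0.0934, 0.114 and 0.169 CPM in ProsB1 RNAi and at 1.57, 3.93 and 1.60 CPM in ProsB5 RNAi (log2 4.19 ± 0.43, adjusted p = 0.000205, edgeR). The gene msd1, of the augmin complex of the spindle, stood at 0.0623, 0.114 and 0.197 CPM and 2.07, 6.92 and 3.24 CPM (log2 4.97 ± 0.53, adjusted p = 0.000269, edgeR). Of the ProsB5 RNAi libraries replicate 2 was the highest for both, as for Rpt6R and Rpt3R. Ter94 RNAi stood higher, at 11.7 to 13.9 CPM for borr and 46.0 to 62.6 CPM for msd1. Of 18 replication and mitosis genes tested 6 were called higher and 8 had a negative difference. The deubiquitinase gene Uch went from 49.6, 48.1 and 49.5 CPM to 74.0, 102 and 75.0 CPM (log2 0.77 ± 0.12, adjusted p = 0.00236, edgeR), and CG30382 (Prosalpha1R), a near copy of Prosalpha1 that may share its reads, was higher as well (log2 0.76 ± 0.13, adjusted p = 0.00565, edgeR). The gene white (w in the files) was lower, from 2.30, 2.08 and 1.63 CPM to 1.15, 1.28 and 0.875 CPM (log2 -0.85 ± 0.14, adjusted p = 0.0042, edgeR). Its controls, of which some carry a transgene against white, stood at 1.52 to 1.89 CPM, and Ter94 RNAi stood at 70.7 to 80.3 CPM. The gene overlaps kirre, and the cause of these levels was not tested.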
